A study of Mus musculus with 4 samples.

Results

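Thrombospondins and tendon matrix genes were examined in gastrocnemius (calf) muscle of mice carrying a PPARα transgene and of their littermates. The set holds 8 genes chosen by name: the thrombospondins Thbs1, Thbs2, Thbs3, Thbs4 and Comp, and the tendon and cartilage matrix genes Fmod, Tnmd and Chad. They were measured by 15 probe sets that name 1 gene each, of 22690 probe sets and 12393 such genes on the array, and 1 further probe set was annotated to both Pald1 and Thbs1. The set was drawn up around the lower signal of Thbs4 in transgenic muscle, seen in an earlier pass over the same arrays, so the values of the comparison between genotypes are given as a description, without a test of the members.

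PPARα is a nuclear receptor that activates genes of lipid use when a fatty acid binds it. Thrombospondins are secreted glycoproteins that bind calcium, collagens, integrins and growth factors. Thbs1 and Thbs2 form trimers and carry the repeats that bind Cd36, while Thbs3, Thbs4 and Comp form pentamers without those repeats. Tendon is built of collagen fibrils whose assembly is tuned by small leucine-rich proteoglycans such as fibromodulin, and skeletal muscle samples carry tendon and interstitial connective tissue along with fibres.

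The transgenic group, MCK-PPARa, comprised 2 samples. The label names MCK, muscle creatine kinase, whose promoter is active in skeletal and heart muscle, and describes the overexpression as specific to muscle. The control group, non-transgenic littermates (NTG), comprised 2 samples, and both groups were of total RNA from mouse gastrocnemius hybridised to 1 Affymetrix array each. The series describes 2 mice of each genotype, but the labels do not say which animal each array came from, so errors measure only the spread between these samples. The sources used here give no age, sex or strain. The Ppara probe set read 633 (replicate 1) and 2674 (replicate 2) in NTG, against 7969 (replicate 1) and 15226 (replicate 2) in MCK-PPARa muscle, so both transgenic samples lay above both controls.

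Values are MAS5 signals, a linear measure of brightness for each probe set, which the authors scaled to a common 2% trimmed mean of 1500.6 to 1500.7. Differences are MCK-PPARa minus NTG on the scale log2(signal + 64.2), with the standard error (SE, n = 2 per group) of a limma fit. The offset is 10% of the median signal, and this scale understates the differences of dim probe sets. Array number limits the precision, since with 2 samples a group the smallest two-sided p that exact permutation allows is 0.333. Probes of different genes differ in brightness for the same amount of RNA, so no signal is set against that of another gene. In whole muscle, fewer cells of a type and less RNA per cell cannot be told apart.

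For 6 of the 8 genes, all but Thbs1 and Comp, the reference sequences used here cover the start of transcription in the mouse build GRCm38.p6. The 250 bases before the start were read. The windows of Thbs4, the member with the lowest signal difference, and of Tnmd, the member with the highest, are shown 5′ to 3′ on the gene's strand to set the starts of these genes side by side. Thbs4 is on the minus strand at chr13:92794819-92795068 and Tnmd on the plus strand at chrX:133850758-133851007. Capitals mark matches to CANNTG, the E-box bound by basic helix-loop-helix factors such as scleraxis, and to GGGCGG, the GC box bound by Sp1, on either strand.
Thbs4: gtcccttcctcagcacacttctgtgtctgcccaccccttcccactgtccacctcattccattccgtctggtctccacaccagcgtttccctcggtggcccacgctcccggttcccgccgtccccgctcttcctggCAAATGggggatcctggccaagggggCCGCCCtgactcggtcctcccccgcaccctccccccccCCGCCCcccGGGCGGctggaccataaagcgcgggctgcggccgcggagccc
Tnmd: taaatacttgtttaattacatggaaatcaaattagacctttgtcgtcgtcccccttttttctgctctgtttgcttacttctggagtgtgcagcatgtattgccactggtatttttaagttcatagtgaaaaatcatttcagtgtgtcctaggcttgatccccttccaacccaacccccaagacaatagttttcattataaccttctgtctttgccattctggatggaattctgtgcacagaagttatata
The Thbs4 window was 70.8% G and C, and the Tnmd window was 38.4%, against a median of 52.4% over 32841 windows of the same length. The Thbs4 window held 3 matches to GGGCGG, a motif found in 32.8% of all windows, and 1 to CANNTG, found in 66.2%. The Tnmd window held neither. Matches to AGGTCA, the half-site of nuclear receptors such as PPARα, were in 14.0% of all windows and in 0 of these 6, which says only that these letters are not in the 250 bases read. TATAAA, the TATA box, was found on either strand in 12.4% of all windows, and among the members in those of Chad and Thbs2. These motifs do not overlap one another in the windows shown, and a match is a match of letters, not a bound site.

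Thbs4 was lower in both transgenic samples. Thbs4 (1449388_at) encodes thrombospondin 4, a matrix protein of tendon and muscle interstitium that also acts in the endoplasmic reticulum of striated muscle, and its gene spans chr13:92751586-92794818 in GRCm38.p6. In NTG muscle it read 10238 (replicate 1) and 10466 (replicate 2), and in MCK-PPARa muscle 4635 (replicate 1) and 4325 (replicate 2). The groups were far apart relative to the distance between replicates, at -1.20 ± 0.28 (SE) in log2 units, or 2.29-fold lower. The first pair of arrays (replicate 1) gave -1.13, and the second pair gave -1.26. Of the 8400 genes that passed a filter on dim probe sets, 1.02% had a lower difference. These are the values for which Thbs4 was picked, so they support nothing further.

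**Figure D1:**
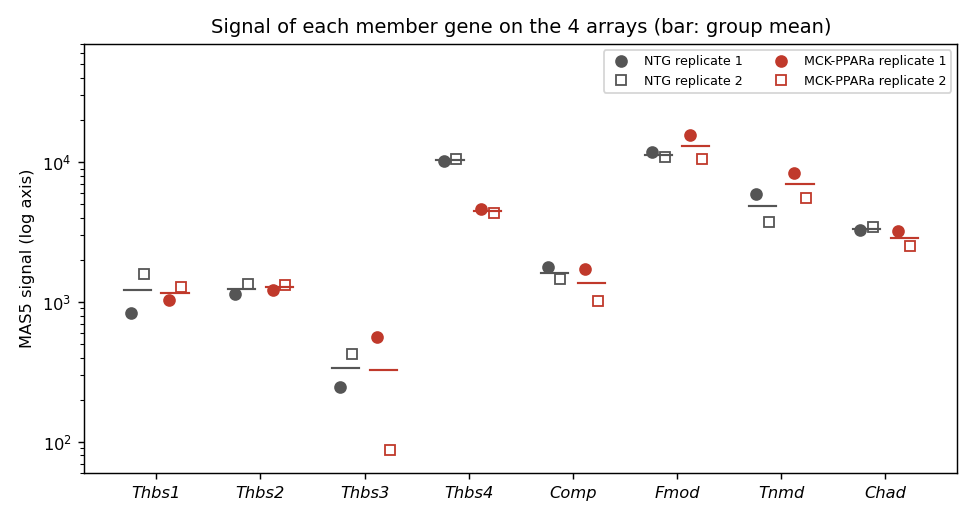
MAS5 signal (log axis) of the 8 genes on each array, with the brightest probe set for genes with several. Grey symbols are NTG and red symbols MCK-PPARa, circles are replicate 1 and squares replicate 2, and bars are group means. Thbs4 is at 10238 and 10466 in NTG and at 4635 and 4325 in MCK-PPARa.

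The other pentameric thrombospondins did not show a comparable separation. Comp (1419527_at), cartilage oligomeric matrix protein, a fibril-organising protein of cartilage and tendon, read 1779 and 1465 in NTG against 1726 and 1021 in MCK-PPARa muscle. One transgenic sample lay within the NTG range and the other below it, with a difference of -0.27 ± 0.36 (SE). The first pair gave -0.04 while the second gave -0.49, so the lower mean came mainly from the second pair. Thbs3 (1416623_at), a pentameric relative expressed in cartilage and bone, read 247 and 427 in NTG against 566 and 86.9 in MCK-PPARa muscle. Its transgenic samples lay on opposite sides of both controls, and its difference of -0.34 ± 0.74 (SE) was 1.02 in the first pair and -1.70 in the second. Thbs3 was the 1 member that did not pass the filter on dim probe sets, and its error is larger than its difference.

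The trimeric thrombospondins were near equal between genotypes on their brightest probe sets. Thbs1 encodes an activator of latent TGF-β and inhibitor of vessel growth. On its brightest probe set (1450377_at) it read 839 and 1580 in NTG against 1033 and 1278 in MCK-PPARa muscle, with both transgenic samples inside the NTG range (-0.0063 ± 0.39, SE). The second Thbs1 probe set (1460302_at) read 663 and 1391 in NTG against 802 and 748 in MCK-PPARa muscle, again inside that range (-0.29 ± 0.46, SE). The probe set shared by Pald1 and Thbs1 (1421811_at) read 538 and 1040 in NTG against 421 and 402 in MCK-PPARa muscle, and its signal cannot be assigned to either gene. On all 3 of these probe sets NTG replicate 2 was the highest of the 4 arrays.

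Thbs2, a regulator of collagen fibril assembly, was close to level on its brightest probe set (1422571_at), at 1137 and 1340 in NTG against 1217 and 1331 in MCK-PPARa muscle. The difference was 0.04 ± 0.32 (SE), and it was -0.02 with quantile normalization and -0.06 with each array centred on its median, so it has no settled direction. Its second probe set (1450663_at) read 840 and 1034 in NTG against 1144 and 1004 in MCK-PPARa muscle (0.19 ± 0.38, SE). The groups overlapped on both Thbs2 probe sets.

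The tendon matrix genes had no common direction. None was as low in transgenic muscle as Thbs4, which was picked for its low difference. Tnmd (1417979_at) encodes tenomodulin, a membrane protein used as a marker of mature tendon cells. It read 5934 and 3707 in NTG against 8305 and 5564 in MCK-PPARa muscle. This is 0.53 ± 0.36 (SE), opposite in sign to that of Thbs4. The first MCK-PPARa sample was above both controls and the second between them. Within pairs the difference was 0.48 and 0.58, the only member gene for which both pairs were above 0. Tnmd in replicate 1 was higher than in replicate 2 by 0.67 in NTG and by 0.57 in MCK-PPARa muscle, a gap between replicates as large as the difference between genotypes.

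Chad (1420569_at), which encodes chondroadherin, a leucine-rich repeat protein that binds collagen and integrins, read 3266 and 3429 in NTG against 3213 and 2515 in MCK-PPARa muscle. Both transgenic samples were below both controls, the first by a narrow margin, and the difference was -0.23 ± 0.30 (SE). The first pair gave -0.02 and the second -0.44. Together with Thbs4, Chad was 1 of 2 among the 7 member genes past the filter whose groups did not overlap, both lower in transgenic muscle, and such lower genes made up 13.8% of all genes tested, of the 34.2% whose groups did not overlap in either direction. Since Thbs4 was picked for this contrast, nothing is read from that count.

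Fmod, fibromodulin, a small leucine-rich proteoglycan that controls the thickness of tendon collagen fibrils, was measured by 6 probe sets. The brightest (1415939_at) read 11733 and 10938 in NTG against 15607 and 10558 in MCK-PPARa muscle, and the groups overlapped (0.18 ± 0.31, SE). The mean of all 6 gave 0.03 ± 0.35 (SE). The other 5 carry the suffix _x_at, which marks probes that may match other transcripts, and their differences ran from -0.34 to 0.36. All 6 were higher in MCK-PPARa than in NTG in the first pair of arrays, and all 6 were lower in the second. The probe set 1437685_x_at had the widest range, at 6844 and 8745 in NTG against 11796 and 4110 in MCK-PPARa muscle, where the transgenic samples again enclosed both controls. The 6 probe sets share 1 transcript and the same arrays, so they are repeated readings of 1 gene, not replicates of the condition.

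**Figure D2:**
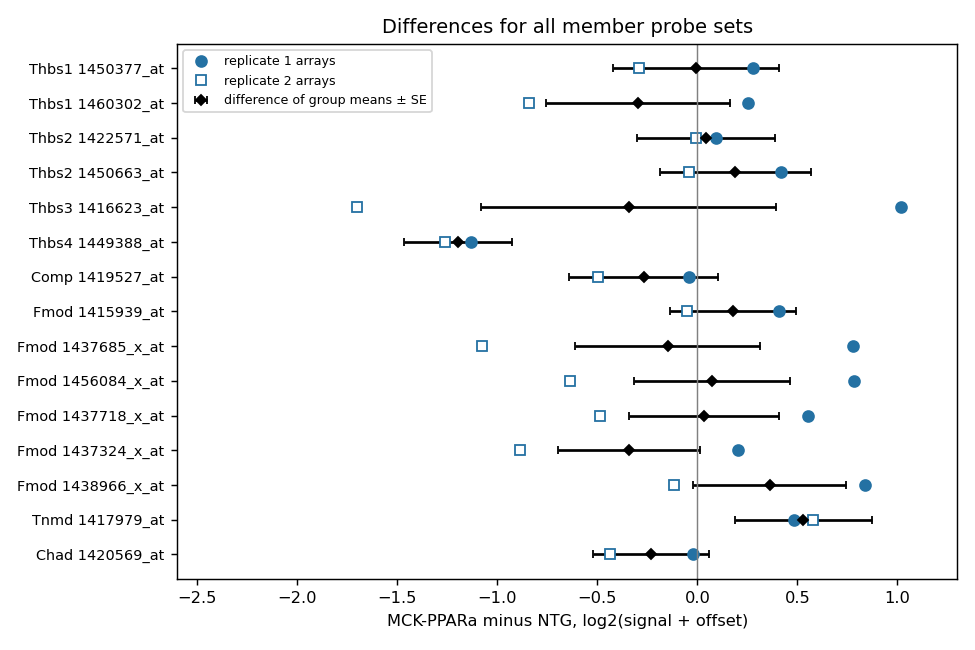
Difference between MCK-PPARa and NTG on the log2(signal + 64.2) scale for the 15 probe sets. Black diamonds with bars are the difference of group means ± SE from a fit over all 20380 probe sets with 1 gene symbol, filled circles are the replicate 1 arrays and open squares the replicate 2 arrays. Thbs4 is below 0 in both pairs (-1.13 and -1.26), Tnmd is above 0 in both (0.48 and 0.58), and the pairs of Fmod lie on opposite sides of 0.

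None of the 7 member genes past the filter was among the 5 of 8400 genes with a limma adjusted p under 0.05 (0.0595%). Without adjustment, 491 genes (5.85%) had a limma p under 0.05. In a fit blocked on replicate number, 196 genes passed (2.33%), among them 1 member gene, Thbs4, from whose place there nothing is read. The median difference of the 7 was -0.0063, against 0.05 over all genes tested, with 4 below 0 and 3 above. Over all 8400 genes, 3742 were below 0 and 4658 above. In the first pair of arrays the median of the 7 was 0.09 and in the second -0.29, against 0.04 and 0.06 over all genes. Without Thbs4, 12 of the remaining 14 probe sets were higher in MCK-PPARa between the replicate 1 arrays, and 1 of 14, that of Tnmd, between the replicate 2 arrays. Since 6 of the 14 are readings of Fmod, the counts with 1 probe set a gene were 5 of 7 and 1 of 7. The shares over all genes were not counted for each pair, so nothing is read from these counts.

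The differences between replicates of 1 genotype do not enter the difference of group means, but its SE and p rest on them. A gene picked for its change in this contrast may have small gaps for that reason, so nothing is read from the gaps of Thbs4. In MCK-PPARa muscle, replicate 1 was above replicate 2 on all 9 probe sets of Comp, Fmod, Tnmd and Chad. The brightest probe sets gave 0.72 for Comp, 0.57 for Tnmd, 0.56 for Fmod and 0.35 for Chad. For Thbs4 the same difference was 0.10, smaller than in 87.2% of all genes tested, and it was -0.29 for Thbs1 and -0.12 for Thbs2. Over all genes, 44.8% were higher in MCK-PPARa replicate 1, and the median difference was -0.07. Among NTG samples 4 of the 15 probe sets, 6 of them of Fmod, were higher in replicate 1. The brightest probe sets gave 0.67 for Tnmd, 0.27 for Comp, 0.10 for Fmod, -0.07 for Chad and -0.03 for Thbs4. By gene, replicate 1 was higher for 3 of the 7 members past the filter in NTG, against 46.1% of all genes tested. In MCK-PPARa muscle it was higher for 5 of the 7. Whether the arrangement in transgenic muscle differs from that in NTG was not tested.

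**Figure D3:**
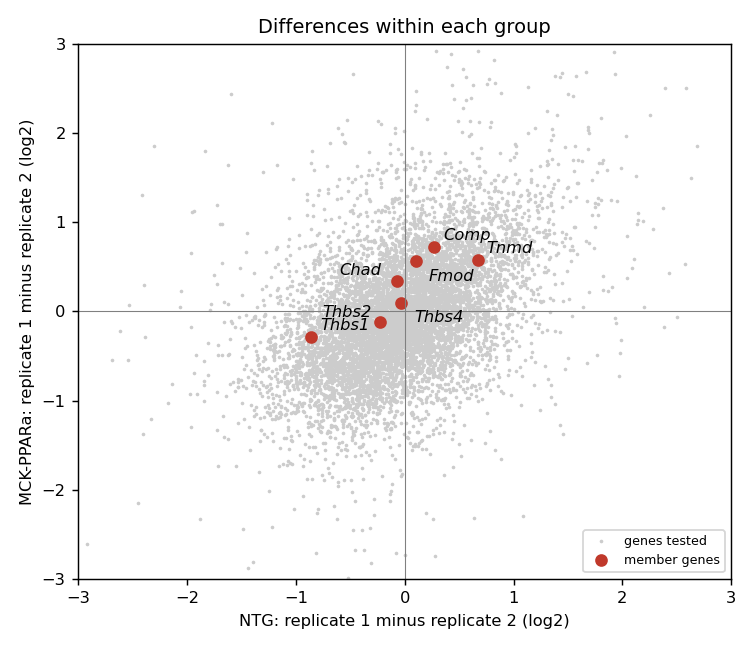
Difference between the replicates of a genotype on the log2 scale, NTG on the horizontal and MCK-PPARa on the vertical axis. Grey points are genes tested (13 genes beyond 3 on an axis are not drawn) and red points the 7 member genes past the filter. Comp, Fmod, Tnmd and Chad lie above 0 on the vertical axis at 0.35 to 0.72, and Thbs4 lies near the origin at -0.03 and 0.10.

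The arrays also differed by replicate number in a control: 18S ribosomal RNA, by its 5′ probe set, was at 2202 in NTG and 2313 in MCK-PPARa replicate 1, and at 28.9 and 44.7 in replicate 2. By its 3′ probe set the gap was smaller, at 1414 and 1978 in replicate 1 and 527 and 511 in replicate 2. The part of 18S RNA in the differences between replicates was not tested. Skeletal muscle markers were bright on every array, and their summed signal over 8 genes was 963756 to 1043610 in NTG against 967989 to 1122720 in MCK-PPARa muscle. Of the tendon cell markers that are not members, Scx, Col1a1, Tnc and Egr1 were on the array, with a summed signal of 56017 and 74913 in NTG against 70686 and 85241 in MCK-PPARa muscle. Of these 4, Scx, the transcription factor scleraxis, was lower in both transgenic samples (477 and 668 against 387 and 461), and the other 3 overlapped. Summed signals of the 8 fibroblast markers were 79782 and 81222 in NTG against 80597 and 81103 in MCK-PPARa muscle. Single markers went both ways: Pdgfra was lower in both transgenic samples (1146 and 2011 against 803 and 762), Dpt was higher in both, and the other 6 overlapped, Pi16 at -1.05 among them. Bright genes carry these sums, such as Col1a1 with 70664 of the 74913 of the tendon markers in NTG replicate 1. The part of cell makeup in the Thbs4 difference was not tested. Cartilage markers other than Comp summed to 2215 and 2358 in NTG and to 1825 and 2900 in MCK-PPARa muscle. Of the 8 cartilage markers, Comp among them, 3 passed the filter on dim probe sets, and the dimmest, Cnmd, read 13.6 to 55.6. Of the markers of platelets, cells that store Thbs1 protein, 0 of 5 had groups that do not overlap, against 34.2% of genes tested. Their sums were 3188 and 3773 in NTG against 4223 and 4717 in MCK-PPARa muscle, and 3 of the 5 passed the filter. Adipocyte markers, 4 of 6 on the array, summed to 16805 and 27391 in MCK-PPARa muscle against 6607 and 6782 in NTG. Of these 4, 3 were higher in both transgenic samples and Lep overlapped, and Fabp4 made up 21784 of the 27391. Endothelial markers (9089 and 11068 in NTG, 13313 and 14238 in MCK-PPARa) and macrophage markers (7279 and 8064, 8882 and 9858) also summed higher. In each list 3 of 5 were higher in both transgenic samples, against 1706 of all 8400 genes tested. The part of these cells was not tested.

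Genes that work with thrombospondins in matrix and muscle were followed in 8 lists, and no member of any list passed limma's test adjusted over all 8400 genes. Of 99 list genes tested, 5 had an unadjusted limma p under 0.05 (Cd36, Atf4, Cilp2, Ilk and Timp2), or 5.05% against 5.85% of all genes. Thrombospondin receptors and binding partners had a median difference of -0.0049 over 12 genes tested of 15, with 6 above 0 and 6 below. Cd36, the scavenger receptor and fatty acid translocase bound by Thbs1 and Thbs2, had the smallest p. It read 3847 and 2917 in NTG against 14153 and 8597 in MCK-PPARa muscle (1.70 ± 0.35, SE; limma adjusted p = 0.20). The heparan sulphate proteoglycan Sdc4 was at -0.61 ± 0.35 (SE, limma adjusted p = 0.96) and the laminin receptor subunit Itga6 at 0.44 ± 0.29 (SE, limma adjusted p = 0.96). The integrin subunit Itgav, the receptor Cd47 and the calcium channel subunit Cacna2d1, to which thrombospondins bind, were at -0.18, 0.14 and -0.36. With the mean of all probe sets of a gene, Sdc4 was at -0.37 and Itga6 at 0.27.

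Thbs4 is known to bind Atf6 and promote its function in the endoplasmic reticulum, and 18 of 19 genes of that stress response were tested. Their median difference was -0.10, with 11 below 0, against 3742 of all 8400 genes tested. Atf4, a transcription factor of the integrated stress response, read 8653 and 8103 in NTG against 4571 and 3895 in MCK-PPARa muscle (-0.98 ± 0.28, SE; limma adjusted p = 0.47). Xbp1 was at -0.57 ± 0.35 (SE) and the chaperone Hspa5 at -0.45 ± 0.35 (SE), each with a limma adjusted p of 0.96, while Atf6 itself was at -0.15. In this list 12 of 18 genes were higher in MCK-PPARa replicate 1 than in replicate 2, with a median gap of 0.56. That is 66.7%, against 44.8% of all genes tested, and in NTG 10 of the 18 were higher in replicate 1.

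Relatives of fibromodulin, the small leucine-rich proteoglycans, had a median difference of -0.0042 over 6 genes tested of 14. Prelp was at -0.45 ± 0.30 (SE), Lum at 0.35 ± 0.32 (SE) and Kera at -0.19 ± 0.36 (SE), with limma adjusted p from 0.96 to 0.98. Of the 6, 5 were higher in MCK-PPARa replicate 1 than in replicate 2, by a median of 0.36, as were Fmod and Chad. In NTG 3 of the 6 were higher in replicate 1. In the lists other than this one and the stress list, the share higher in MCK-PPARa replicate 1 was lower. It ran from 37.5% (TGF-β activation and signalling) to 55.6% (cartilage matrix), against 44.8% of all genes tested. Kera was 3457 and 1849 in MCK-PPARa replicates 1 and 2 and 2953 and 2846 in NTG, the same arrangement as for Fmod.

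Further tendon matrix and tendon transcription factor genes had a median difference of 0.27 over 15 tested of 20. Of these, 10 were above 0 and 5 below, against 4658 and 3742 of all 8400 genes tested. Cilp2, of the cartilage intermediate layer protein family, read 984 and 527 in NTG against 254 and 297 in MCK-PPARa muscle (-1.22 ± 0.49, SE; limma adjusted p = 0.80). The collagen cross-linking enzyme Lox read 1761 and 2434 in NTG against 2932 and 3440 in MCK-PPARa muscle (0.60 ± 0.31, SE; limma adjusted p = 0.92), and the mean of its probe sets gave 0.04 ± 0.31 (SE). Dpt, dermatopontin, was at 0.32 ± 0.30 (SE, limma adjusted p = 0.97). The tendon collagens Col1a1 and Col1a2 were at 0.27 and 0.33, Col3a1 at -0.08 and tenascin C (Tnc) at -0.03, and Scx at -0.37. The list median fell to 0.04 when the probe sets of a gene were averaged and to 0.03 without MCK-PPARa replicate 1.

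Cartilage matrix genes had a median of 0.0011 over 9 tested of 18. Sox5 was at 0.68 ± 0.46 (SE), Matn2 at -0.63 ± 0.43 (SE) and aggrecan (Acan) at 0.35 ± 0.38 (SE), with limma adjusted p from 0.96 to 0.97. Genes of the myotendinous junction and muscle adhesion had a median of -0.19 over 14 tested of 16. Of these 14, 10 were below 0, against 3742 of all 8400 genes tested. Integrin-linked kinase (Ilk) read 3634 and 3657 in NTG against 6679 and 6921 in MCK-PPARa muscle (0.89 ± 0.28, SE; limma adjusted p = 0.55). Its partner Itga7, the laminin-binding integrin subunit of muscle, was at 0.59 ± 0.28 (SE, limma adjusted p = 0.90), and the stretch-responsive Ankrd2 at -0.60 ± 0.28 (SE, limma adjusted p = 0.89).

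Genes of TGF-β activation and signalling had a median of 0.12 over 16 tested of 20. Tgfb3 was at 0.53 ± 0.30 (SE), Smad3 at -0.79 ± 0.49 (SE) and Smad2 at 0.49 ± 0.32 (SE), with limma adjusted p of 0.96 for each. Matrix proteases and their inhibitors had a median of -0.06 over 9 tested of 15. Timp2, an inhibitor of matrix metalloproteinases, read 9765 and 8989 in NTG against 5185 and 5163 in MCK-PPARa muscle (-0.85 ± 0.28, SE; limma adjusted p = 0.61), and the mean of its probe sets gave -0.28 ± 0.38 (SE). Mmp14, which Timp2 binds, was at 0.48 ± 0.37 (SE) and Mmp2 at -0.17 ± 0.30 (SE), with limma adjusted p from 0.96 to 0.98, and Mmp2 was at -0.06 with the mean of its probe sets.

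**Figure D4:**
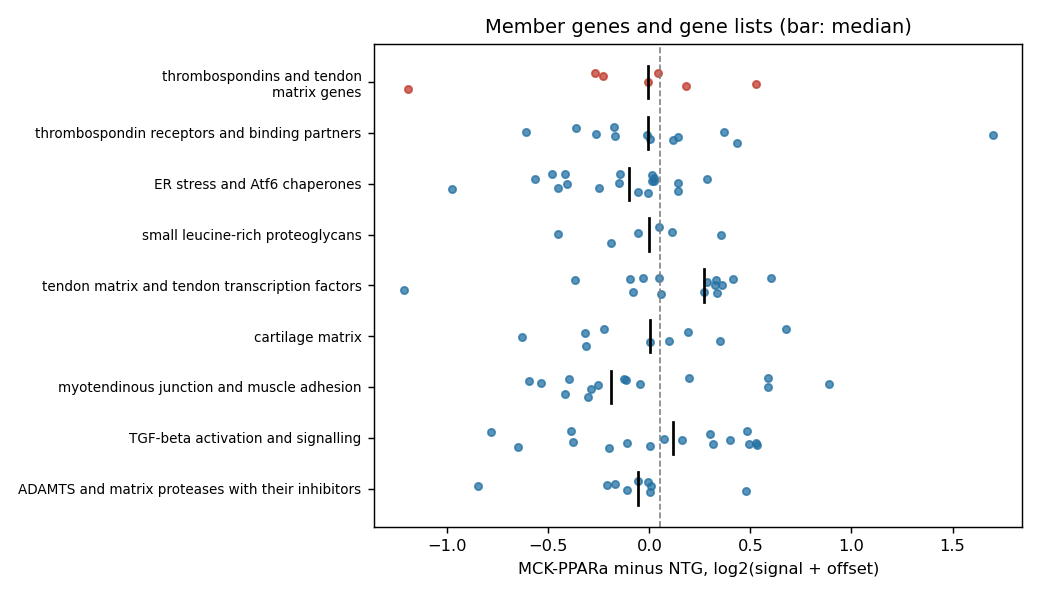
Difference between MCK-PPARa and NTG on the log2(signal + 64.2) scale for the 7 member genes past the filter (red) and the tested genes of the 8 lists (blue). Each point is 1 gene, black bars are medians, and the dashed line is the median over all genes tested (0.05). Thbs4, which was picked for its low difference, is at -1.20, and the other member genes run from -0.27 to 0.53.

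The genes whose pattern over the 4 arrays was nearest to that of Thbs4 were Cptp, Spns2, Ube2e1, Igfals and Clu. Nearness was the Euclidean distance between log2 values centred on each gene's mean, which was 0.18 to 0.21 for these 5. Spns2, a transporter of sphingosine 1-phosphate, read 3639 and 3210 in NTG against 1387 and 1320 in MCK-PPARa muscle (-1.30 ± 0.29, SE). Clu, the secreted chaperone clusterin, read 6236 and 5775 in NTG against 2773 and 2910 in MCK-PPARa muscle (-1.06 ± 0.28, SE). Cptp, a ceramide 1-phosphate transfer protein, was at -1.02, the ubiquitin-conjugating enzyme gene Ube2e1 at -1.02 and Igfals, the acid-labile subunit of circulating growth factor complexes, at -1.26. None of them is in a list above, and the choice by pattern fixes that their groups do not overlap.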

How the data were processed

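The authors deposited 1 table of linear signal intensity values for 22690 probe sets, made with MAS5 per the submitters' processing notes. The sources used here give no version, settings or detection calls. Which signals exceed background is therefore unknown. Trimmed means were equal across arrays, and no further normalization was applied. Gene names came from the platform annotation: 20380 had 1 gene symbol, 691 several and 1555 none, besides 64 controls. Values were transformed as log2(signal + 64.2). A filter kept probe sets with a mean log2 value at or above the 40th percentile, and each gene was represented by its brightest, leaving 8400. Genotypes were compared in limma 3.58.1 under R 4.3.3 (lmFit, eBayes with a variance trend, two-sided, Benjamini-Hochberg adjustment, threshold 0.05). Errors of Thbs3 and of further probe sets came from the same fit over all 20380 probe sets without a filter. The fit was also run on simulated data with planted changes. Their errors were independent between arrays, so that run does not show how the fit behaves on these arrays. The members and lists were chosen with earlier results of these data known. Named genes were the 8 members, Ppara, from each list up to 3 genes with the smallest p, and the 5 genes nearest to Thbs4. Values of other genes in a list were given where a function is described, chosen after their values were seen.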

Additional observations from a re-analysis of the deposited data

How the results depend on the processing

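Over the 13 alternatives the Thbs4 difference ran from -1.30 to -1.15. Of 91 member gene values under these alternatives, 87 moved by less than 1 SD between replicates. The others arose by leaving out 1 array: Thbs1 ran from -0.44 without NTG replicate 1 to 0.43 without NTG replicate 2, and Comp from -0.63 without MCK-PPARa replicate 1 to 0.092 without MCK-PPARa replicate 2. Centring each array on its median shifted the median of all genes by -0.10, and the Thbs4 value of -1.30 was from that setting. Genes past the threshold numbered 5, against 2 with a 60th percentile filter, 3 with median centring, 12 with averaged probe sets and 68 to 150 with 1 array left out. With the replicate block they numbered 196 (2.33%), among them 1 gene each of the receptor list (Cd36) and the stress list (Atf4). The 1 member gene among them was Thbs4, which was picked for this contrast, so nothing is read from its place there. The groups share replicate numbers 1 and 2, which the labels do not explain; differences between replicates correlated between the groups across genes (r = 0.46), which are not independent, and 2 pairs cannot show that the numbers pair samples. The receptor list had 0 to 1 gene past the threshold with 1 array left out, again Cd36. Averaging the probe sets of a gene took Timp2 from -0.85 to -0.28 and Lox from 0.60 to 0.04. Other named genes moved further from 0 with it: Atf4 from -0.98 to -1.46, Smad3 from -0.79 to -1.08 and Clu from -1.06 to -1.38. Kera ran from -0.63 to 0.25 and Mmp2 from -0.35 to 0.0020 with 1 array left out. Of 150 probe set values 16 moved by more than 1 SD. For list medians 19 of 104 were counted as moved, by a narrower limit than 1 SD. Among them was the receptor list, from -0.0049 to -0.016 without NTG replicate 2. Without detection calls, whether a dim signal such as that of Thbs3 exceeds background is unknown.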
